A study of Mus musculus with 9 samples.

Results

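Matricellular and microfibril glycoproteins are secreted proteins of the extracellular matrix, and 9 of their genes were followed among the 10716 genes of the deposited table. Chosen by symbol were Tnc, Fbn1, Ccn2, Edil3, Spp1, Fn1, Thbs1 and Ccn1, each of which was listed. The ninth, Postn, stood in the table under the symbol PRB4 and was found by its mouse Ensembl identifier, ENSMUSG00000027750. RNA had been sequenced from C2C12 myotubes, the multinucleated muscle fibres that a mouse myoblast line forms in culture. Libraries came in 3 groups of 3: cells given vehicle, cells given dexamethasone (50 µM), and cells given the same dose of dexamethasone with THSG (10 µM), each exposed for 24 h. Dexamethasone is a synthetic glucocorticoid that brings about wasting in cultured muscle, and THSG is an abbreviation that the labels do not spell out. THSG was never given without dexamethasone, and whether replicates were separate cultures is not stated, so p-values measure only the spread between these libraries, which may be technical.

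Matrix proteins fall into those that build a scaffold and those that act on cells without bearing load. Fibronectin and fibrillin-1 belong to the scaffold: fibronectin forms fibrils that cells hold through integrins, and fibrillin-1 polymerises into microfibrils, which carry elastin and store latent TGF-beta. Matricellular proteins such as tenascin-C, the thrombospondins, osteopontin, periostin and the CCN proteins bind that scaffold and cell surface receptors and tune adhesion. In skeletal muscle many of them are known from development, injury and regeneration, where they are made by muscle precursors and by connective tissue cells.

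The values were taken to be FPKM, which scale fragments to transcript length and library size, so levels of different genes can be compared per length. They summed to between 400218 and 422379 FPKM per library, every listed value was at least 1 FPKM, and read depth is unknown. Genes under 1 FPKM in any library are thus not analysed here. Across genes, which are not replicates, log2 values of libraries of 1 group correlated with r from 0.991 to 0.994. The cultures carried the myotube label's markers: all 15 myotube genes fixed for this check were listed, with Acta1, skeletal actin, at 3030 ± 238 FPKM with vehicle (SD, n = 3). Their summed level was 7656 to 8243 FPKM with vehicle, 8293 to 9057 with dexamethasone and 8867 to 9081 with THSG as well. The mitochondrial genes took 10.5 to 11.95% of the sum in 8 libraries and 14.0% in dexamethasone replicate 3. None of 6 endothelial and 6 adipocyte markers, and 1 of 7 immune cell markers, was among the listed genes.

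Dexamethasone changed all 9 genes by the test used here: 7 were lower and 2, Postn and Ccn2, were higher (limma, Benjamini-Hochberg adjusted p under 0.05 over all 10716 genes). Of all genes, 33.6% passed, 20.9% lower and 12.7% higher. Falls of at least 2-fold were found for 5 members and for 1.67% of all genes, and rises of at least 2-fold for 2 members and for 1.22%. The members' median log2 fold change was -1.19, beside -0.05 over all genes. Members were chosen with earlier results of these data known, so their excess over all genes is not independent evidence. In each of the 9 genes the 3 vehicle libraries lay apart from the 3 dexamethasone libraries, as they did in 45.9% of all genes. The higher genes made up 37.8% of all called genes on the deposited scale, 49.6% under median-ratio scaling, 50.5% under quantile normalization and 51.9% once GC content and length were corrected for. Bulk RNA cannot tell fewer cells of a type from less RNA per cell.

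**Figure D1:**
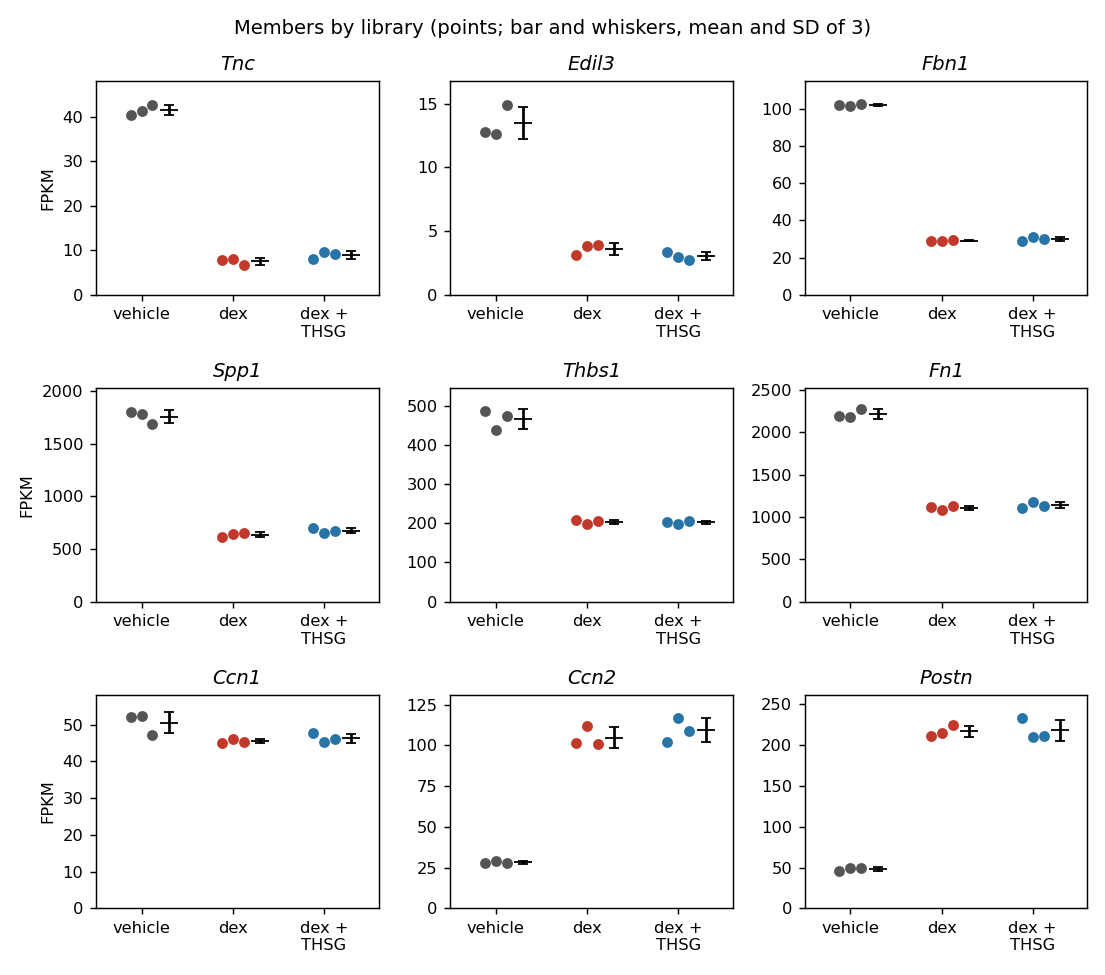
FPKM of the 9 members in each library (points, 3 per group; bar and whiskers, mean and SD; dex, dexamethasone), each panel with its own linear axis from 0. In the 6 genes Tnc, Edil3, Fbn1, Spp1, Thbs1 and Fn1 the vehicle libraries sit well above the other 6 libraries, in Ccn2 and Postn below them, and Ccn1 differs least.

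The scaffold genes fell. Fn1 (ENSMUSG00000026193), fibronectin, stood at 2190, 2178 and 2279 FPKM in the vehicle libraries and at 1118, 1085 and 1129 FPKM with dexamethasone. The lowest vehicle library was thus far above the highest treated one, and the means fell 1.99-fold, from 2215 ± 55.0 to 1111 ± 22.6 FPKM (log2 fold change -0.996, SE 0.050, limma adjusted p = 3.87e-08). Fbn1 (ENSMUSG00000027204), fibrillin-1, measured 101.8, 101.3 and 102.7 FPKM with vehicle and 28.9, 29.0 and 29.4 FPKM with dexamethasone. Its libraries varied little within either group, and the fall was 3.50-fold (log2 fold change -1.81, SE 0.043, adjusted p = 6.27e-11). Fibronectin remained the most abundant of the 9 per length in every group, at the 99.9 percentile of the table with vehicle and the 99.7 percentile with dexamethasone, whereas Fbn1 went from the 94.5 to the 77.4 percentile.

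Tnc (ENSMUSG00000028364) encodes tenascin-C, a large oligomeric glycoprotein that loosens adhesion to fibronectin. Its values were 40.5, 41.4 and 42.7 FPKM with vehicle and 7.83, 7.97 and 6.66 FPKM with dexamethasone. That fall of 5.50-fold (log2 fold change -2.46, SE 0.087, limma adjusted p = 1.89e-09) was the largest among the members, and 3 genes of the table had a more negative log2 fold change. Within each library the ratio of Tnc to Fn1 went from 0.0187 ± 0.000255 to 0.00675 ± 0.000754 (n = 3 each), so Tnc fell 2.76-fold beyond Fn1. No library of 1 group reached the other group's range in that ratio (exact permutation test, two-sided, p = 0.1, the smallest that 3 against 3 libraries allow).

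Spp1, Edil3 and Thbs1 fell as well. Spp1 (ENSMUSG00000029304), osteopontin, a secreted phosphoprotein that binds integrins and CD44, measured 1804, 1785 and 1689 FPKM with vehicle and 610, 647 and 651 FPKM with dexamethasone. Its fall was 2.77-fold (log2 fold change -1.47, SE 0.051, limma adjusted p = 1.69e-09). Edil3 (ENSMUSG00000034488), a glycoprotein with an integrin-binding RGD motif and discoidin-like domains, was the least abundant member, at 12.8, 12.7 and 14.9 FPKM and then 3.09, 3.86 and 3.88 FPKM. It fell 3.67-fold (log2 fold change -1.87, 95% interval from -2.14 to -1.61), with the widest interval of the 9. Thbs1 (ENSMUSG00000040152), thrombospondin-1, which binds CD47 and CD36 and activates latent TGF-beta, measured 486, 438 and 473 FPKM with vehicle. With dexamethasone it measured 207, 199 and 205 FPKM, a fall of 2.28-fold (log2 fold change -1.19, SE 0.046). The groups did not overlap in any of the 3.

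Postn and Ccn2 rose. Postn encodes periostin, a fasciclin-domain protein that binds integrins and collagen, and it was at 45.8, 49.9 and 49.7 FPKM with vehicle and at 212, 214 and 224 FPKM with dexamethasone. The rise was 4.47-fold (log2 fold change 2.16, SE 0.053, limma adjusted p = 7.93e-11), the 23rd largest of the table. Ccn2 (ENSMUSG00000019997), connective tissue growth factor, which is a textbook target of TGF-beta and YAP, went from 27.8, 29.3 and 27.9 FPKM to 101.2, 112.0 and 101.1 FPKM. This was a rise of 3.68-fold (log2 fold change 1.88, SE 0.059, adjusted p = 6.08e-10). In both genes the lowest dexamethasone library lay above the highest vehicle library by a wide margin.

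Ccn1 (ENSMUSG00000028195), the closest relative of Ccn2 in this set and likewise a YAP target, differed little. It measured 52.0, 52.4 and 47.1 FPKM with vehicle and 45.0, 46.1 and 45.3 FPKM with dexamethasone. Vehicle replicate 3 lay closest to the dexamethasone libraries, and the log2 fold change was -0.15 (SE 0.050, limma adjusted p = 0.0367). The call was lost in 12 of 20 alternative settings, among them median-ratio scaling (-0.10), correction for GC content and length (-0.06) and the removal of any 1 dexamethasone library, of vehicle replicate 1 or 2, or of the third library given THSG.

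**Figure D2:**
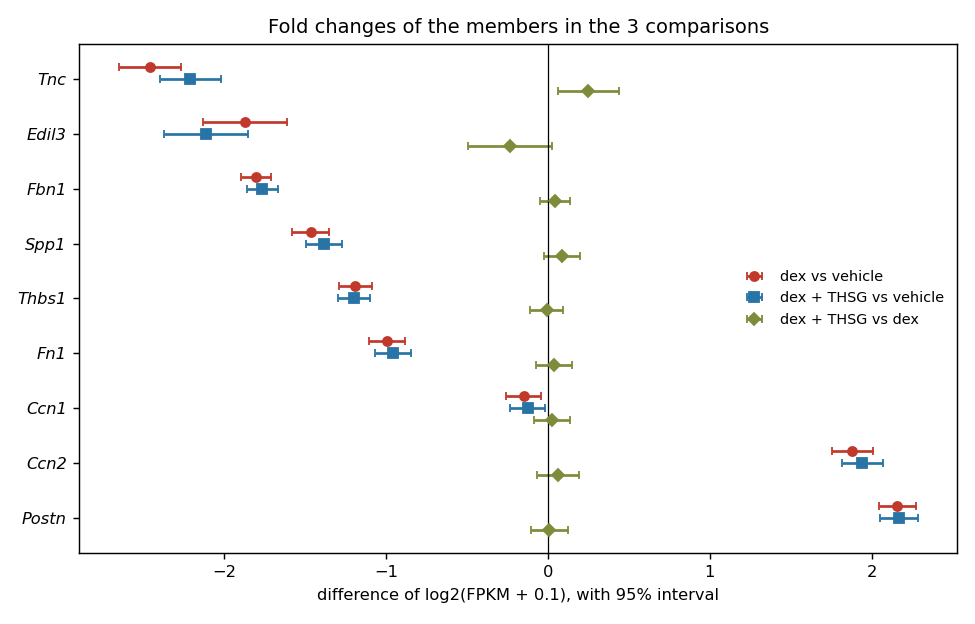
Difference of log2(FPKM + 0.1) with its 95% interval from the limma fit for each member and comparison (dex, dexamethasone). Comparisons of either treated group with vehicle share the vehicle libraries and run side by side, from -2.46 for Tnc to 2.16 for Postn with dexamethasone alone, while the difference that THSG made on top of dexamethasone lies near 0.

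Promoter windows from RefSeq (build GRCm38.p6, an earlier build than the authors') were matched by symbol for 5 of the 9 members, Tnc, Fbn1, Spp1, Postn and Ccn1, with 8 windows in all. The 250 bases before the start site are shown for a pair of genes that fell, for Postn, which rose, and for Ccn1, to set the sequences of opposite responses side by side. Tnc, Spp1 and Postn each had another window, at another start site, which is not shown, and motif positions depend on the window. Capitals mark every match, on either strand, to any of 5 motifs searched. The core promoter element known as the TATA box was searched as TATAAA. Sites of the YAP partner TEAD were searched as CATTCC, and those of the SMAD proteins downstream of TGF-beta receptors as CAGAC. The AP-1 site was searched as TGACTCA, and a single arm of the glucocorticoid response element as TGTTCT. The lines run 5′ to 3′ on the gene's strand and cover chr4:64047016-64047265 (minus strand) for Tnc, chr5:104434861-104435110 (plus) for Spp1, chr3:54360857-54361106 (plus) for Postn and chr3:145649986-145650235 (minus) for Ccn1.
Tnc: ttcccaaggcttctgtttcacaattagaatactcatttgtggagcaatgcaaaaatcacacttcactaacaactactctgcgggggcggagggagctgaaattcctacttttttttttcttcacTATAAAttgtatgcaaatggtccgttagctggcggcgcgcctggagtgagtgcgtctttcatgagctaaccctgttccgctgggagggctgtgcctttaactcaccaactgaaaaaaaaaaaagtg
Spp1: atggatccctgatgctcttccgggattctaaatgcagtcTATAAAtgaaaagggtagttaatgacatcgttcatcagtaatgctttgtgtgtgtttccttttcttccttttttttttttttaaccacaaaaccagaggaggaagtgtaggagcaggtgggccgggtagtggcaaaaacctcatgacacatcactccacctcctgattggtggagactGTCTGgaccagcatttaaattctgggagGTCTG
Postn: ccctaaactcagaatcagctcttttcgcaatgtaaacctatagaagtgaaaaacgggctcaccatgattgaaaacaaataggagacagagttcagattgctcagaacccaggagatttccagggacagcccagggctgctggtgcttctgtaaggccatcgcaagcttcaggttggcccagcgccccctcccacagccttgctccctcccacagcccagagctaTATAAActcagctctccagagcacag
Ccn1: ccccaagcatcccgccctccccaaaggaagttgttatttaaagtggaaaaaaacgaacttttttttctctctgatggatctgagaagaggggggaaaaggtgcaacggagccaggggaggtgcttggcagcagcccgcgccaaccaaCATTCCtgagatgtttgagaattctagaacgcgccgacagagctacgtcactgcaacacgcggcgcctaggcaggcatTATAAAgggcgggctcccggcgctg

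In these windows TATAAA stood at positions -26 to -21 from the start of Postn and -25 to -20 from that of Ccn1, but at -126 to -121 in Tnc and -211 to -206 in Spp1. CATTCC was found once, in Ccn1 at -103 to -98. The Spp1 window held CAGAC on the opposite strand at -33 to -29 and at -5 to -1. The other windows of Tnc, Postn and Spp1, not shown, each held this SMAD motif too. It was thus in 4 of the members' 8 windows. Of the same 8, the letters TATAAA were in 5 and the TEAD motif in 1. The Tnc windows overlap, and their TATAAA match is 1 site counted in both. TATAAA occurs in 12.4% of all 32851 windows of this length, CATTCC in 12.6% and CAGAC in 42.2%. Neither TGACTCA (4.46% of all windows) nor TGTTCT (16.1%) was in any of the members' 8 windows. The full response element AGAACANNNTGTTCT, which contains TGTTCT, was in none of the 8 and in 3 of all windows (0.00913%). These are matches of letters only and do not show binding.

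Together the 9 genes held 1.14 ± 0.0321% of the summed FPKM with vehicle and 0.578 ± 0.00524% with dexamethasone (n = 3 each). Fn1 kept its part of the members' sum, at 46.9 ± 1.17% and 47.1 ± 0.822%. Spp1 went from 37.2 ± 1.30% to 27.0 ± 0.761% of that sum, Postn from 1.03 ± 0.0556% to 9.20 ± 0.151% and Ccn2 from 0.600 ± 0.0226% to 4.44 ± 0.293%. Ordered by FPKM, the vehicle level ran Fn1, Spp1, Thbs1, Fbn1, Ccn1, Postn, Tnc, Ccn2 and Edil3. The libraries of neighbours overlapped only between Ccn1 (47.1 to 52.4 FPKM) and Postn (45.8 to 49.9 FPKM). With dexamethasone the order was Fn1, Spp1, Postn, Thbs1, Ccn2, Ccn1, Fbn1, Tnc and Edil3, and no neighbours overlapped, although Postn (212 to 224 FPKM) and Thbs1 (199 to 207 FPKM) stood close.

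**Figure D3:**
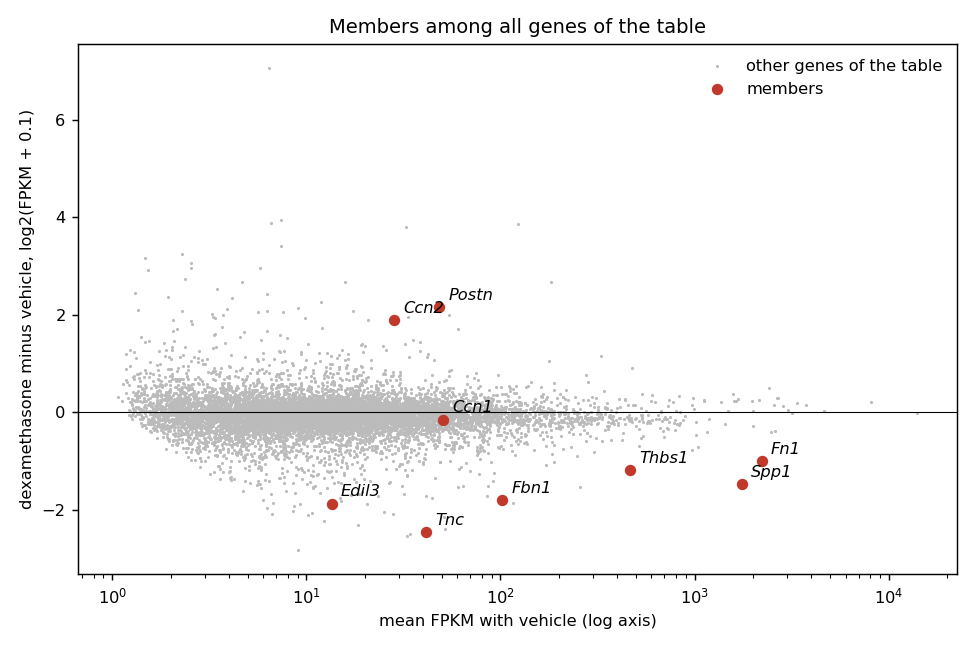
Log2 fold change of dexamethasone against vehicle for all 10716 genes (grey) over their mean FPKM with vehicle (log axis), with the 9 members in red. Fn1, Spp1 and Thbs1 lie among the most abundant genes of the table, Tnc, Edil3 and Fbn1 near its lower edge, and Ccn2 and Postn above most genes.

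Relatives of the members within a gene family did not move as one. In the CCN family, whose proteins share a modular plan of growth-factor-binding and matrix-binding domains, Ccn2, Ccn3 and Ccn5 rose and Ccn4 fell. Ccn4 went from 60.3 ± 1.2 to 20.6 ± 0.56 FPKM (n = 3 each, log2 fold change -1.54, limma adjusted p = 5.24e-10). Ccn3 rose from 2.76 ± 0.42 to 6.03 ± 0.52 FPKM (1.11) and Ccn5, which lacks the C-terminal domain, from 4.64 ± 0.43 to 8.77 ± 0.42 FPKM (0.91). The ratio of Ccn2 to Ccn1 within a library was 0.534, 0.560 and 0.592 with vehicle and 2.25, 2.43 and 2.23 with dexamethasone. Ccn1 was thus the more abundant of the pair per length in each vehicle library and Ccn2 in each treated one. The ratio rose 4.09-fold (exact permutation p = 0.1, the smallest unadjusted p the design allows, and adjusted p = 0.2 over the 8 ratio comparisons).

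Thrombospondins diverged too. Thbs2, a close relative of Thbs1 that does not activate TGF-beta, rose from 20.8 ± 1.9 to 77.8 ± 5.9 FPKM (n = 3 each, log2 fold change 1.90, SE 0.084, limma adjusted p = 1.29e-08) while Thbs1 fell. Thbs3, of the pentameric branch, fell from 2.72 ± 0.072 to 1.52 ± 0.27 FPKM (-0.81). The ratio of Thbs1 to Thbs2 was 22.7, 23.4 and 21.3 in the vehicle libraries and 2.50, 2.79 and 2.58 in the dexamethasone libraries. That is a drop of 8.52-fold with no overlap (exact permutation p = 0.1, adjusted p = 0.2). Edil3 was also compared with Mfge8, its relative with the same kind of discoidin-like domains, which was not called (66.9 ± 6.2 FPKM with vehicle, 61.6 ± 2.4 with dexamethasone, adjusted p = 0.188). Their ratio fell from 0.202 ± 0.0199 to 0.0588 ± 0.00878, again without overlap. A plain ratio within a library shows unequal change and does not depend on scaling between libraries. The fold changes and tests of the ratios had 0.1 FPKM added to each gene, so they are not wholly free of scaling.

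**Figure D4:**
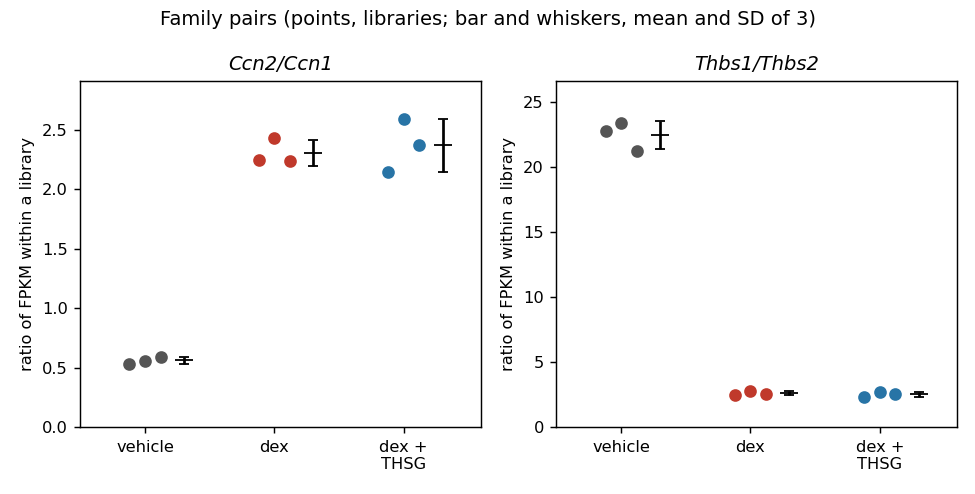
Ratios of FPKM of Ccn2 to Ccn1 and of Thbs1 to Thbs2 in each library (points, 3 per group; bar and whiskers, mean and SD; dex, dexamethasone; linear axes from 0). The first ratio is 0.534 to 0.592 with vehicle and at least 2.15 in the other 6 libraries, and the second is 21.3 to 23.4 with vehicle and at most 2.79 in the others.

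Other genes of the microfibril and elastic fibre moved in both directions. Of 16 measured genes of 21 fixed, 8 were lower and 4 higher with dexamethasone, with a median log2 fold change of -0.14. Beside this count and those of the lists below, 20.9% of all genes were lower and 12.7% higher. Lox, a cross-linking enzyme of collagen and elastin, rose from 110 ± 3.9 to 160 ± 9.8 FPKM (n = 3 each, log2 fold change 0.54, limma adjusted p = 9.98e-06). Its relative Loxl1 fell from 80.2 ± 5.6 to 53.9 ± 4.5 FPKM (-0.57), and Ltbp3, which tethers latent TGF-beta, from 75.5 ± 6.5 to 44.2 ± 2.2 FPKM (-0.77). Fbln2, a fibulin, was at 72.9 ± 3.7 and 72.2 ± 2.4 FPKM (-0.01, 95% interval from -0.13 to 0.10). In the list of tenascins and fibronectin partners 4 genes of 9 fixed were measured, with no tenascin among them, and 3 were lower and 0 higher. Fndc1, Nid2 and Nid1 had log2 fold changes of -0.53, -0.32 and -0.25, and the proteoglycan gene Vcan was not called (-0.07, limma adjusted p = 0.401).

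Of 6 measured genes of 18 fixed as further matricellular genes, 3 were higher and 2 lower. Sparc, a collagen-binding calcium-binding protein, fell from 1017 ± 31 to 731 ± 6.0 FPKM (n = 3 each, log2 fold change -0.48, limma adjusted p = 6.24e-06), and the secreted glycoprotein gene Fstl1 from 137 ± 5.0 to 86.5 ± 1.9 FPKM (-0.66). Matn2, a matrilin of the muscle matrix, rose from 19.7 ± 1.6 to 46.5 ± 1.2 FPKM (1.24).

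Receptors for these ligands showed no common direction. Of 15 measured integrins, syndecans and other receptors, 5 were higher, 6 lower and 4 not called, with a median log2 fold change of 0.06. Itgb1, the integrin beta chain shared by many fibronectin receptors, rose from 290 ± 10 to 323 ± 13 FPKM (n = 3 each, log2 fold change 0.16, limma adjusted p = 0.0215). Itgb5, which pairs with the alpha v chain, was at 141 ± 6.0 and 140 ± 4.8 FPKM (-0.01). Sdc2, a syndecan, fell from 189 ± 4.6 to 93.4 ± 4.3 FPKM (-1.02), and Lrp1, an endocytic receptor that clears thrombospondin, from 184 ± 8.0 to 120 ± 6.1 FPKM (-0.61).

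Of 21 measured YAP/TEAD and SRF factors and targets, 6 were higher and 6 lower, with a median log2 fold change of -0.04. Ankrd1, a YAP target abundant in muscle cells, was not called (331 ± 9.7 FPKM with vehicle, 322 ± 12 with dexamethasone, n = 3 each, limma adjusted p = 0.565), and Acta2, smooth muscle actin, rose from 776 ± 31 to 893 ± 8.0 FPKM (0.20). Ccn2, of the same textbook target set, rose by 1.88. Of 18 measured TGF-beta ligands, receptors, SMADs and targets, 11 were lower and 4 higher, with a median of -0.25. Pmepa1, a target and inhibitor of TGF-beta signalling, fell from 184 ± 8.7 to 102 ± 2.5 FPKM (-0.85), the receptor gene Tgfbr2 from 75.9 ± 2.6 to 43.9 ± 1.3 FPKM (-0.79) and the corepressor gene Ski from 37.2 ± 0.16 to 29.9 ± 1.1 FPKM (-0.31). The ligand gene Tgfb3 was not called, at 74.3 ± 2.1 and 68.9 ± 1.9 FPKM (adjusted p = 0.0787).

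Of 11 measured proteases that cut these glycoproteins, dexamethasone lowered 7 and raised 2, with a median log2 fold change of -0.45. Mmp14, a membrane-bound matrix metalloproteinase, fell from 258 ± 4.1 to 189 ± 2.8 FPKM (n = 3 each, -0.45, limma adjusted p = 5.01e-06), and Bmp1, which processes procollagens and other matrix precursors, from 85.4 ± 3.0 to 56.3 ± 1.8 FPKM (-0.60). Mmp2, the gelatinase that MMP14 activates, rose from 163 ± 5.1 to 205 ± 10 FPKM (0.33). The secreted serine protease gene Htra1 was not called (-0.09, adjusted p = 0.299).

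**Figure D5:**
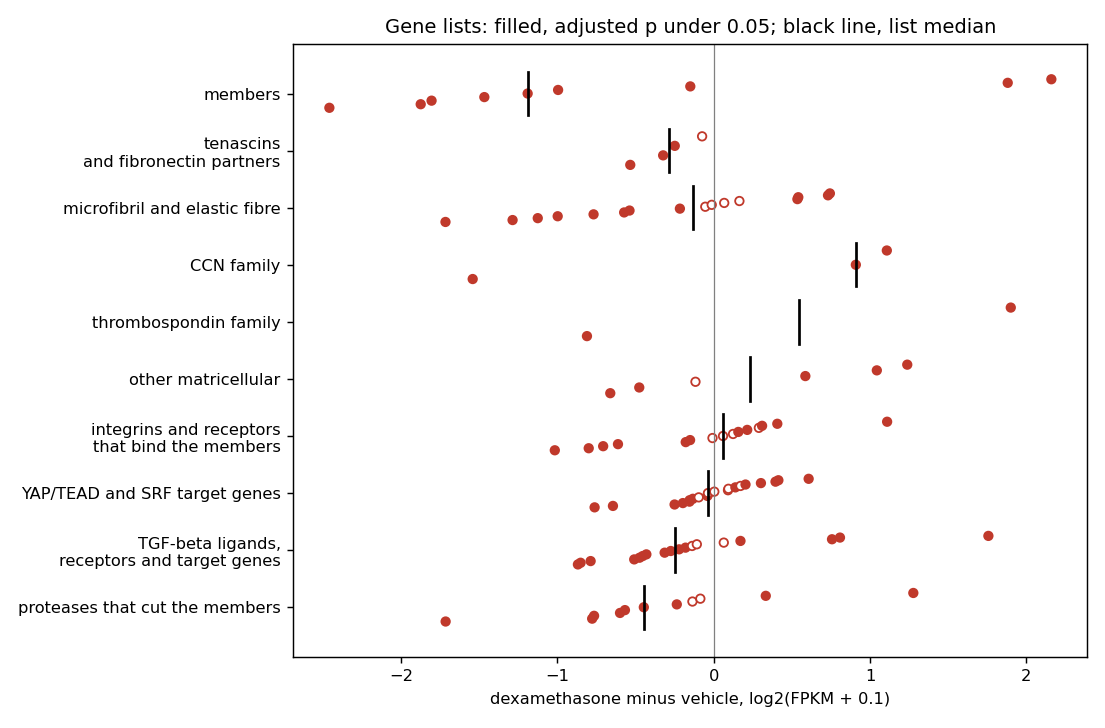
Log2 fold change of dexamethasone against vehicle for the listed genes of each list (points; filled, limma adjusted p under 0.05; open, not called), with the median of each list as a black line. All lists but the tenascins and fibronectin partners hold filled points on both sides of 0, and the receptor genes run from -1.02 for Sdc2 to 1.11 for Cd36.

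Genes used as markers of other cells that make matrix moved with the same comparison. In cultures of a myoblast line their levels do not show that such cells were present. Of 6 measured fibroblast markers, 5 were lower and 1, Pdgfra, was higher, and their summed level was 1037 to 1109 FPKM with vehicle, 571 to 585 with dexamethasone and 607 to 609 with THSG as well. Col3a1, Col1a2, Col1a1 and Pdgfrb had log2 fold changes of -0.79, -0.89, -1.51 and -0.89. Pdgfra rose from 3.32 ± 0.17 to 8.40 ± 0.53 FPKM (1.31). All 5 measured markers of dividing cells were lower, with sums of 42.7 to 48.6 FPKM with vehicle and 14.0 to 17.8 with dexamethasone. Of 7 measured markers of undifferentiated myoblasts or reserve cells, 4 were lower and 2 higher. Of 7 osteoblast or chondrocyte markers 2 were measured, and both were lower: Sox9 and Runx2 had log2 fold changes of -0.58 and -0.53, with sums of 23.7 to 25.3 FPKM with vehicle, 15.7 to 17.8 with dexamethasone and 14.9 to 18.4 with THSG as well. The immune marker measured, Cd14, was not called (3.60 ± 0.567 FPKM with vehicle, 2.50 ± 0.932 with dexamethasone, limma adjusted p = 0.112), though it was called lower without dexamethasone replicate 3. Of the myotube markers 10 were higher and 1, Des, was lower. The call of Des was lost in 15 of 20 alternatives, and between 8 and 13 myotube markers were higher across them. Whether other cell types were present, and the part of any cell type in the members' changes, was not tested.

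Adding THSG to dexamethasone changed none of the 9 genes by the limma test, which called 0 of 10716 genes (0%) in this comparison; 777 genes, 1 of them a member, had an unadjusted p under 0.05. That member was Tnc, at 7.94, 9.52 and 9.28 FPKM with THSG against 7.83, 7.97 and 6.66 FPKM without. THSG replicate 1 fell inside the range of the dexamethasone libraries, and the log2 fold change was 0.25 (95% interval from 0.06 to 0.44, unadjusted p = 0.0148, adjusted p = 0.589). Edil3 was at 3.36, 2.99 and 2.76 FPKM with THSG, where the dexamethasone libraries spanned 3.09 to 3.88 (-0.24, from -0.50 to 0.02, adjusted p = 0.699). Spp1, at 698, 651 and 673 FPKM, was the single member whose groups did not overlap, with 651.4 FPKM in the lowest THSG library and 651.1 in the highest without. Of all genes 13.3% did not overlap, 8.41% with THSG higher. Its log2 fold change was 0.08 (from -0.03 to 0.20, adjusted p = 0.749).

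In the other 6 members the 95% interval of the difference included 0. With THSG, Fn1 measured 1108, 1178 and 1134 FPKM (log2 fold change 0.04, 95% interval from -0.07 to 0.15) and Fbn1 28.9, 31.1 and 29.8 FPKM (0.04, from -0.05 to 0.13). Thbs1 measured 202, 199 and 206 FPKM (-0.01, from -0.11 to 0.09) and Ccn1 47.7, 45.2 and 45.9 FPKM (0.03, from -0.08 to 0.13). Ccn2 measured 102.3, 116.9 and 109.0 FPKM (0.06, from -0.07 to 0.19) and Postn 233, 210 and 212 FPKM (0.01, from -0.11 to 0.12). Differences beyond those bounds are outside the 95% intervals, and those within them were not told apart from 0 with 3 libraries per group. Ratios of the family pairs overlapped between these groups, with Ccn2 to Ccn1 at 2.15, 2.59 and 2.37 and Thbs1 to Thbs2 at 2.30, 2.74 and 2.56 (exact permutation p = 0.7 and 0.6).

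Against vehicle, the cells given dexamethasone plus THSG showed 6 members lower, 2 higher and 1 not called, where 29.1% of all genes passed, 17% lower and 12.1% higher. The libraries did not overlap in 43.1% of all genes, 25.2% lower, and in 8 of the members, Ccn1 being the exception. This comparison uses the same vehicle libraries as the first and is no second test of dexamethasone. The log2 fold changes with and without THSG were -2.21 and -2.46 for Tnc, -2.11 and -1.87 for Edil3, -1.76 and -1.81 for Fbn1, and -1.38 and -1.47 for Spp1. They were -1.20 and -1.19 for Thbs1, -0.96 and -0.996 for Fn1, 1.94 and 1.88 for Ccn2 and 2.17 and 2.16 for Postn. Ccn1 was the gene not called (-0.12, limma adjusted p = 0.0833).

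Genes with the profile most like each member were found by the Euclidean distance between log2 profiles over the 9 libraries, each centred on its vehicle mean. Tnc stood nearest to Col8a1, a short-chain collagen gene (distance 0.336), and to Dynap (0.642). For Fbn1 they were Dpysl3 (0.167) and Ltbp2 (0.302), a latent TGF-beta binding protein gene whose level was 41.5 FPKM with vehicle and 12.6 with dexamethasone. Spp1 was followed most closely by Timp1, an inhibitor of metalloproteinases (0.158), and Crabp2 (0.224). Nearest to Edil3 were Gfra1 (0.424) and Grem1, a BMP antagonist (0.458), to Fn1 Fmnl3 (0.120) and Cxcl12, a chemokine (0.172), and to Thbs1 Adcy7 (0.138) and Cmklr1 (0.192). Among rising genes, Postn lay nearest to Trp53inp1 (0.239) and Fbxo32, the atrophy ubiquitin ligase atrogin-1 (0.259), and Ccn2 to Kng2 (0.290) and Glul, glutamine synthetase (0.318). Ccn1 resembled Rps6 (0.0729) and Cox6b1 (0.0769), which differed as little between groups. These distances rest on a shared difference between the treated and vehicle libraries and are a description.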

How the data were processed

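In all, 9 libraries of C2C12 myotubes were analysed, 3 per group, grouped by their titles, since the cell line name differs between samples as if numbered. Libraries were made with a stranded mRNA kit, per the labels. The tools were STAR 2.7.10a and featureCounts, with build GRCm39, per the submitters' processing notes, which give them no role or order. The deposited table is named as counts, but its values are fractional and were taken to be FPKM made by the authors; the step from counts, the strand setting and the filter are not given in the sources used here. At most 5 genes shared 1 value ratio between a pair of libraries, so whole reads were not recovered and precision comes from replicates alone.

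Of 10716 identifiers, 10670 matched GENCODE M21 (GRCm38), and 52 human-style symbols were replaced by the mouse symbol. The limma package (3.58.1, R 4.3.3) was run on log2(FPKM + 0.1), with 1 mean per group, all 9 libraries in each fit, an intensity trend, two-sided tests and Benjamini-Hochberg adjustment over all genes (threshold 0.05). The fit was tested on simulated data. Fold changes on this scale slightly understate those of low genes. Ratios were tested by exact permutation in Python 3.11.15, on the log2 scale with 0.1 FPKM added to each gene. Named genes were the members, up to 4 of each list with the highest mean, the family pairs and the 2 nearest profiles per member. Pdgfra and Cd36 fall outside this rule and were named after their values were seen, as were genes so marked below. Members and lists were chosen with earlier results of these data known, so their direction is not independent evidence. Alternatives covered pseudocounts 0 and 1, 3 other scalings, a minimum mean of 5 FPKM, no trend, the compared groups alone, a replicate block, a correction for GC content and transcript length (splines with 4 degrees of freedom), both together, and each library left out.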

Additional observations from a re-analysis of the deposited data

How the results depend on the processing

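Of the members, 8 kept direction and call in all 20 alternatives for dexamethasone against vehicle, with log2 fold changes from -2.51 to -2.33 for Tnc, 1.83 to 1.94 for Ccn2 and 2.06 to 2.21 for Postn, and Ccn1 did not (called in 8, from -0.20 to -0.06). Against vehicle with THSG as well, Ccn1 was called in 1 alternative, without vehicle replicate 3 (-0.17). For THSG plus dexamethasone against dexamethasone no member was called in any alternative. Genes called there numbered 0 as deposited, 1 with the replicate block and 1 with the replicate block and GC content and length correction (Rps2-ps10, higher, both), and 0 to 1 when a library was left out (Cks2, higher, without dexamethasone replicate 3); these names were chosen after their values were seen. With the block, 3518 genes were called for dexamethasone against vehicle, beside 3601. Nothing in the labels ties same-numbered libraries to 1 culture, so the numbers were not taken to pair the libraries. Deviations of same-numbered libraries correlated with r from -0.086 to 0.107, and those of differently numbered libraries from -0.123 to 0.114. Small differences between THSG plus dexamethasone and dexamethasone changed sign, and the cause was not tested. Quantile normalization gave -0.047 for Fn1, -0.0088 for Ccn1 and -0.018 for Postn. GC content and length correction gave -0.019 for Ccn1, with and without the replicate block. Median-ratio scaling and equal sums gave -0.0055 and -0.0080 for Postn. Leaving out 1 library gave from -0.025 to 0.0046 for Thbs1, 0.0027 of these without THSG replicate 2, and from -0.040 to 0.035 for Postn, -0.0085 of these without dexamethasone replicate 1. The log2 ratio of Ccn2 to Ccn1 ranged from -0.029 to 0.106 and that of Thbs1 to Thbs2 from -0.112 to 0.0143. Depth is unknown, so counting error could not be assessed.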

Other observations

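Further genes of the microfibril, TGF-beta and protease lists, chosen after their values were seen, also diverged with dexamethasone. All but Ltbp2, a nearest profile of Fbn1, lie outside the naming rule. Ltbp1, which binds latent TGF-beta to microfibrils, rose from 20.8 ± 0.38 to 34.6 ± 0.57 FPKM (n = 3 each, log2 fold change 0.73, limma adjusted p = 2.97e-07), while Ltbp2 fell from 41.5 ± 0.31 to 12.6 ± 1.4 FPKM (-1.72). Among the fibulins, Fbln5 fell from 33.0 ± 1.0 to 13.5 ± 1.2 FPKM (-1.29) and Efemp2 from 37.9 ± 3.2 to 18.9 ± 1.3 FPKM (-0.999), while Fbln1 rose from 4.96 ± 0.36 to 8.45 ± 1.5 FPKM (0.74). The coreceptor gene Tgfbr3 rose from 3.67 ± 0.35 to 12.6 ± 0.27 FPKM (1.76) and the receptor gene Tgfbr1 from 8.26 ± 0.25 to 14.0 ± 0.34 FPKM (0.76), opposite in direction to Tgfbr2. Of the proteases, Adamts1 rose from 15.2 ± 0.091 to 37.1 ± 1.4 FPKM (1.28) and Adamts4 fell from 23.4 ± 1.1 to 7.10 ± 0.95 FPKM (-1.72). With THSG added to dexamethasone, limma called 0 of these 9 genes and 0 of all 10716. At an unadjusted p under 0.05 stood 1 of the 9, Fbln1 (log2 fold change 0.29, limma adjusted p = 0.683), and 777 of all genes.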
